A study of Mus musculus with 10 samples.

Results

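The genes Tox, Tox2, Tox4, Bcl6, Sh2d1a and Slamf6 were followed in RNA-seq libraries of mouse regulatory T cells (Treg cells), taken by symbol from a table of 13252 genes. All 6 were found, and all 6 passed the filter on low values that left 10718 genes for testing. The libraries came from CD4+RFP+GFP+ cells, called Helios+ Treg cells in the labels, and from CD4+RFP+GFP- cells, called Helios- Treg cells, with 5 libraries in each group. Helios is the Ikaros family zinc finger protein encoded by Ikzf2, and the labels tie GFP to it without saying what RFP reports. The design text of the series names wild-type and knockout cells instead, so differences are given here between 2 sorted populations and not as effects of losing Helios. For strain, sex, age, tissue and any allele beyond these reporters the sources used here give nothing. Separate mice or sorts are not named for the libraries of a group, so each p-value reflects only how these samples vary, and that variation may be technical.

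As background, TOX proteins are nuclear factors that bend DNA through an HMG box. Tox is needed for CD4 T cell development and is kept high in chronically stimulated T cells, Tox2 is linked to follicular helper T cells, and Tox4 is a broadly expressed member that works with protein phosphatase 1. Bcl6 is a transcriptional repressor that directs follicular helper and follicular regulatory T cells and opposes Blimp-1, the product of Prdm1. Slamf6 (Ly108) is a receptor of the SLAM family that binds itself on neighbouring cells, and Sh2d1a encodes SAP, the small SH2 adaptor that couples SLAM receptors to the kinase Fyn and sustains contact between T cells and B cells. Sh2d1a and Slamf6 are therefore signalling components and not transcription factors.

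Recovered reads ranged from 4872348 to 6948692 per library. Ikzf2, the gene behind the sort, had 487 ± 56.5 normalized counts (reads scaled by a size factor of the library) in Helios- and 10367 ± 456 in Helios+ libraries (SD, n = 5 each), with no overlap. Of 8 Treg and T cell markers, Ikzf2, Il2ra and Ctla4 were called higher in Helios+ cells, while Foxp3, Cd4, Cd3d, Cd3e and Cd3g were not called. The count was 5 with the replicate number as a block or with quantile or cyclic loess normalization, and 1 without Helios- replicate 4, Helios+ replicate 2 or Helios+ replicate 5. The table also held markers of other cell types, whose part in the results was not tested. The 11 B cell markers summed to 2141 to 3143 normalized counts in Helios- and 1830 to 2709 in Helios+ libraries, with a median log2 change of -0.20 and 1 of 10 tested, Ebf1, called lower. That B cell count was 5 with the replicate block, and 0 when Helios- replicate 1 or 4, or Helios+ 2, 3 or 5, was left out. The 12 macrophage and dendritic cell markers summed to 262 to 418 and 342 to 641, with a median log2 change of 0.36, in the same direction as the genes that rose. Of the 9 tested, Csf1r was called higher, or 2 genes with the block and 2 without Helios- replicate 5. The 9 CD8 T and NK cell markers summed to 559 to 667 and 549 to 639, with a median log2 change of -0.24 and with Nkg7 called higher and Klrk1 lower. Their lower count was 4 with quantile normalization, 2 with the block and without Helios- replicate 1, and 0 without Helios- replicate 5 or Helios+ replicate 1 or 4. Every gene in the table had at least 10 recovered reads over all libraries. None of the markers it holds could therefore be at 0 in every library.

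Promoter windows from RefSeq (build GRCm38.p6, 250 bases before to 50 after an annotated start) are shown for 2 genes that were higher in Helios+ cells, Tox2 and Bcl6, and for 2 that did not pass the test, Tox4 and Slamf6. Of the 6 genes, 4 matched the table of promoters, and Tox and Sh2d1a are named only. Capitals mark GGGAA on either strand, the core of the sites bound by Ikaros family proteins. The windows are chr2:163202877-163203176 (plus strand) for Tox2, chr16:23988803-23989102 (minus strand) for Bcl6, chr14:52278896-52279195 (plus strand) for Tox4 and chr1:171917212-171917511 (plus strand) for Slamf6.
Tox2: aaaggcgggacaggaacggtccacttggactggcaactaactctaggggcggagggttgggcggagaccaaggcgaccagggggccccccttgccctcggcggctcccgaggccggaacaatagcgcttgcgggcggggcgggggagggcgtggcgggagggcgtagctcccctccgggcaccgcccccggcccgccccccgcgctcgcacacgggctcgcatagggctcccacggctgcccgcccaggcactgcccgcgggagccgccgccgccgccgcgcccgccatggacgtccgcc
Bcl6: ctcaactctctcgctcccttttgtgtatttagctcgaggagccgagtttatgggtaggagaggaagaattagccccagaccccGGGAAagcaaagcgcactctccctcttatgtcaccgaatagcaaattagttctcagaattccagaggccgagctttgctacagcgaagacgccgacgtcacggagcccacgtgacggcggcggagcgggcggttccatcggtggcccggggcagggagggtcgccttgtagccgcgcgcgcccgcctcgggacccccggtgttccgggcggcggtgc
Tox4: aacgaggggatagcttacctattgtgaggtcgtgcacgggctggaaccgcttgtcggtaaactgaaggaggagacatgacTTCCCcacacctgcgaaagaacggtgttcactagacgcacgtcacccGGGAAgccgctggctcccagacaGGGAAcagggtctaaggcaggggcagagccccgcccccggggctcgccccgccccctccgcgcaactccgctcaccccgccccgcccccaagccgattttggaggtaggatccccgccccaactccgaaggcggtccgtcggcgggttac
Slamf6: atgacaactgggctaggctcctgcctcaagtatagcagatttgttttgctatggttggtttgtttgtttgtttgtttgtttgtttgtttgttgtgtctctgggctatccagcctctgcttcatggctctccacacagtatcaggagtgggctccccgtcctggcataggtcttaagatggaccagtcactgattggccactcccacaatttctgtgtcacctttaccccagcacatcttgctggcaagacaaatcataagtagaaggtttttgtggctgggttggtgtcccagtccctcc
The Tox4 window held GGGAA 3 times, the Bcl6 window 1 time, and the windows of Tox2 and Slamf6 0 times. For comparison, 62.7% of 32851 RefSeq windows of this length held it at least once. RefSeq lists 5 starts for Tox2 and 2 for Bcl6. Of the other Tox2 windows, the second held GGGAA 0 times and the remaining 3 held it 1 time each, and the second Bcl6 window held it 3 times. The last 2 Tox2 windows begin at 163225203 and 163225204 and so hold the same site. The motif TTCCTNGAA, a form of the Bcl6 site searched on both strands, was found 1 time in the second Bcl6 window, in no other window of the 4 matched genes, and in 1.59% of all windows. These matches are descriptions of the sequence. The table does not say which start was used in these cells.

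Tox, Tox2, Bcl6 and Sh2d1a rose in Helios+ cells, each without overlap between the groups, while Tox4 and Slamf6 did not pass the test. Calls were made with limma's moderated test on log2(normalized count + 1) at a Benjamini-Hochberg adjusted p under 0.05 over all 10718 genes. That test called 24.8% of all genes, 14.1% higher and 10.7% lower in Helios+ cells. With the replicate number as a block it called 1979 genes lower in place of 1143, and without both libraries of replicate 4 it called 747 lower. Of the 6 genes, 4 were called higher and 0 lower, a count that was the same with edgeR, DESeq2 and the block, and 0 were lower at a limma p under 0.05 before adjustment. Groups lay apart for 19.5% of all genes, 11.2% with Helios+ higher and 8.37% with Helios+ lower, and for 4 of these 6, all with Helios+ higher. The median log2 change of the 6 was 0.82, beside -0.02 for all genes tested. In bulk samples, fewer cells of a type and less RNA per cell cannot be told apart.

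**Figure D1:**
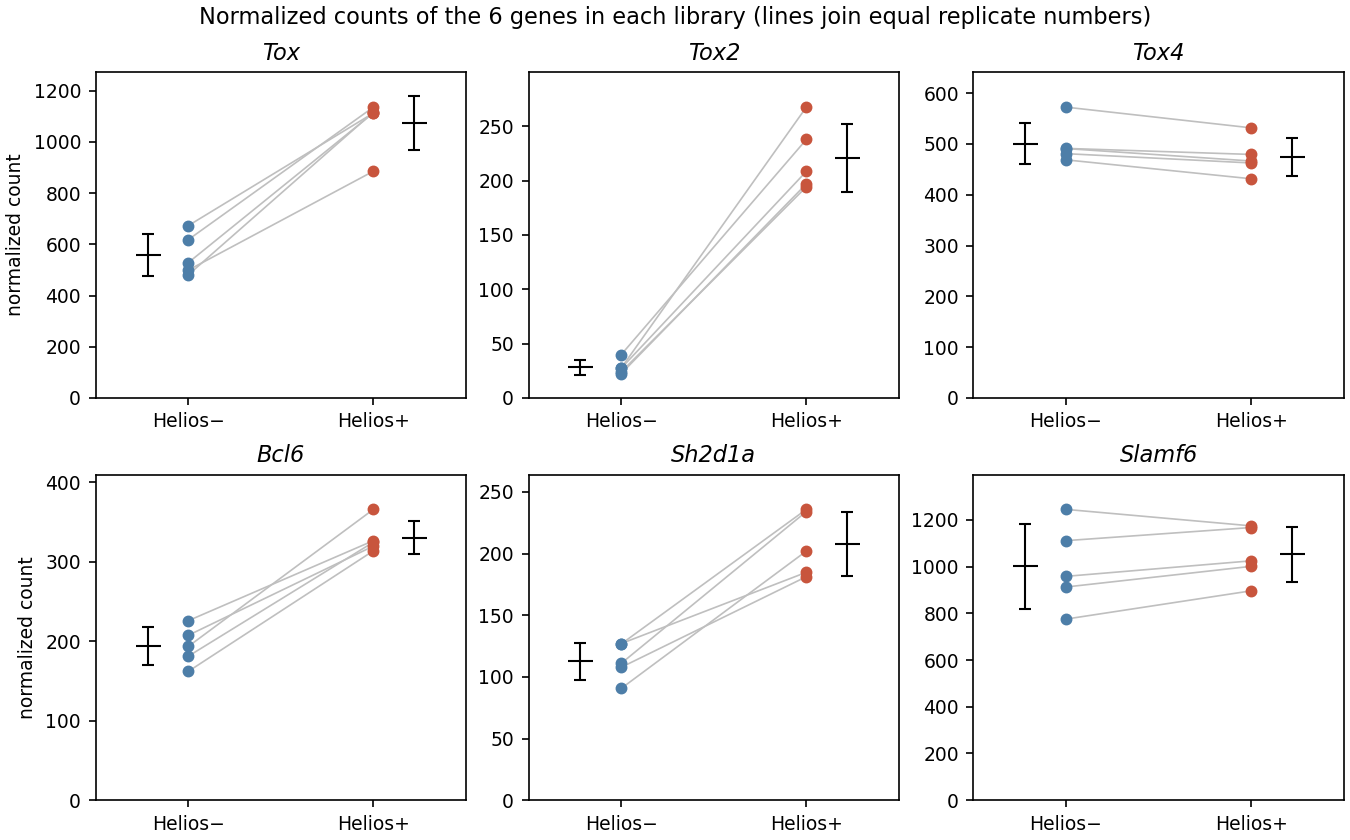
Normalized counts of the 6 genes by library (5 Helios− and 5 Helios+), on linear axes from 0. Points are libraries, lines join equal replicate numbers, and bars give the mean and SD. The groups lie apart for Tox, Tox2, Bcl6 and Sh2d1a and overlap for Tox4 and Slamf6.

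Tox2 had the largest change of the 6 genes. Tox2 (GRCm38 chromosome 2, 163203125 to 163324170, plus strand) had 39.8, 27.5, 27.3, 23.9 and 22.4 normalized counts in Helios- replicates 1 to 5. It had 238, 268, 209, 194 and 197 in Helios+ replicates 1 to 5. The lowest Helios+ library lay far above the highest Helios- library, which was replicate 1. The means were 28.2 ± 6.86 and 221 ± 31.2 (SD, n = 5), a 7.84-fold difference. The log2 change was 2.94 ± 0.16 (SE; limma adjusted p = 2.6e-09), higher in 5 of 5 pairs of equal replicate number. A two-sided exact permutation test gave p = 0.0079, the lowest value among 252 ways of assigning the libraries. Its Helios- values rested on 23 to 34 reads per library, against 170 to 320 in Helios+ libraries. Ranked by log2 change, Tox2 stood at position 59 of 10718, while its mean level exceeded that of 41.5% of the genes tested.

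Tox, its most abundant relative here, rose by a smaller factor. Tox (chromosome 4, 6686353 to 6991557, minus strand) had 499, 528, 673, 481 and 618 normalized counts in Helios- replicates 1 to 5. It had 885, 1113, 1113, 1116 and 1136 in Helios+ replicates. Helios+ replicate 1 was the low library of its group and still lay above every Helios- library. The means were 559.7 ± 82.4 and 1073 ± 105 (SD, n = 5), a 1.92-fold difference. The log2 change was 0.94 ± 0.10 (SE; limma adjusted p = 3.37e-06; exact permutation p = 0.0079), and 94.1% of the tested genes had a lower change. An antisense gene on the opposite strand, Gm11802, covers 6.56% of the exon bases of Tox. Gm11802 was not found by symbol among the 13252 genes, so its level was not analysed here.

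Tox4 differed by less than the spread between libraries. Tox4 (chromosome 14, 52279146 to 52296401, plus strand) had 491, 491, 572, 469 and 481 normalized counts in Helios- replicates. It had 466, 479, 532, 431 and 462 in Helios+ replicates. Replicate 3 was the high library of both groups, and the groups overlapped. The log2 change was -0.08 ± 0.08 (SE), with a 95% confidence interval of -0.24 to 0.08 (limma adjusted p = 0.513; exact permutation p = 0.294). Helios+ was the lower library in 5 of 5 pairs, by 0.04 to 0.12 on the log2 scale, and with the replicate block the adjusted p was 0.307. Exons of Rab2b and Mettl3 on the opposite strand cover 21.1% of the Tox4 exon bases. No source used here states the strand setting of the counting, so reads of these genes cannot be told apart there. Rab2b and Mettl3 were themselves not called, with limma adjusted p of 0.549 and 0.349.

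The 3 Tox genes therefore took different shares of their summed level per kilobase (kb) of exon. Tox2 made up 3.69% ± 1.05 of that sum in Helios- and 16.3% ± 2.49 in Helios+ libraries (SD, n = 5). Tox4 made up 38.5% ± 2.01 and 20.7% ± 1.63. Tox held 57.8% ± 2.79 and 63.0% ± 3.45. The log2 ratio of Tox2 to Tox within a library was -4.28 ± 0.43 in Helios- and -2.28 ± 0.29 in Helios+ cells (SD, n = 5). The difference was 2.00 ± 0.23 (SE; exact permutation p = 0.0079, two-sided) and had p = 0.0238 in that exact test after adjustment over the 3 ratios tested. Within the 5 replicate pairs the exact sign-flip p was 0.0625, the smallest possible, with the ratio higher in 5 of 5 pairs. The paralogs thus changed by unequal factors. Tox3, the remaining family member, was not found by symbol among the 13252 genes and so was not analysed here.

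Bcl6, the repressor at the centre of the follicular programme, was higher in every Helios+ library. Bcl6 (chromosome 16, 23965052 to 23988852, minus strand) had 207, 162, 193, 226 and 181 normalized counts in Helios- replicates. It had 319.6, 314, 366, 326 and 325 in Helios+ replicates. The Helios+ values were close to each other except for replicate 3, the highest library. The means were 194 ± 24.4 and 329.99 ± 20.6 (SD, n = 5), a 1.70-fold difference. The log2 change was 0.77 ± 0.09 (SE; limma adjusted p = 1.52e-05; exact permutation p = 0.0079). B cells of germinal centres also express Bcl6, and the B cell markers had a median log2 change of -0.20, in the other direction. Gm37419 on the opposite strand covers 0.596% of the exon bases.

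Prdm1, whose product Blimp-1 opposes Bcl6, was higher in the same libraries. It had 122 ± 10.4 and 187 ± 22.9 normalized counts (SD, n = 5), with log2 changing by 0.60 ± 0.11 (SE; limma adjusted p = 0.000555), and its groups did not overlap. The log2 ratio of Bcl6 to Prdm1 was 0.63, 0.31, 0.63, 0.99 and 0.71 in Helios- replicates 1 to 5. It was 0.84, 0.61, 0.80, 1.09 and 0.78 in Helios+ replicates. These groups overlapped, and replicate 2 was lowest and replicate 4 highest in both. The difference was 0.17 ± 0.13 (SE), with an exact permutation p of 0.27 (0.27 adjusted over the 3 ratios). Helios+ was higher in 5 of 5 pairs, where the exact sign-flip p was 0.0625, the smallest possible. The difference in this ratio was smaller than the SD of either group.

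**Figure D2:**
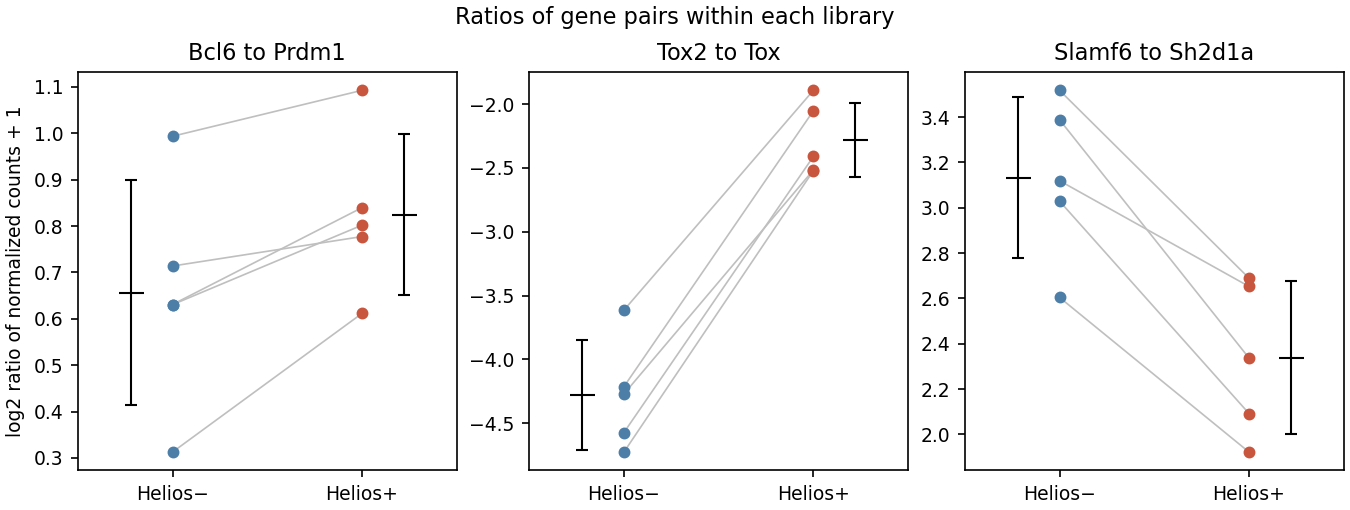
Log2 ratios of normalized counts + 1 of 3 gene pairs by library (5 Helios− and 5 Helios+). Points are libraries, lines join equal replicate numbers, and bars give the mean and SD. The ratio of Tox2 to Tox lies apart between the groups, while the other 2 ratios overlap.

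Sh2d1a, the SAP adaptor gene, rose by nearly the same log2 change as Tox. Sh2d1a (chromosome X, 42502453 to 42529330, plus strand) had 108, 127, 127, 90.6 and 111 normalized counts in Helios- replicates. It had 181, 185, 236, 202 and 234 in Helios+ replicates. Every Helios+ library was above every Helios- library, with replicates 3 and 5 highest in Helios+ cells. The means were 113 ± 15.1 and 208 ± 26.2 (SD, n = 5), a 1.84-fold difference. The log2 change was 0.88 ± 0.12 (SE; limma adjusted p = 4.1e-05; exact permutation p = 0.0079). Exons of Tenm1 on the opposite strand cover 37.8% of the Sh2d1a exon bases. Tenm1 was not found by symbol among the 13252 genes, so its level was not analysed here.

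Slamf6, a receptor that signals through SAP, did not follow its adaptor. Slamf6 (chromosome 1, 171917515 to 171953170, plus strand) had 1245, 1111, 775, 959 and 913 normalized counts in Helios- replicates. It had 1175, 1168, 896, 1025 and 1001 in Helios+ replicates. Replicates 1 and 2 were high and replicate 3 low in both groups, and the groups overlapped. The log2 change was 0.09 ± 0.11 (SE), with a 95% confidence interval of -0.16 to 0.33 (limma adjusted p = 0.65; exact permutation p = 0.563). Helios+ was higher in 4 of 5 pairs. With the replicate block the interval narrowed to -0.02 to 0.19 (limma adjusted p = 0.207). Without Helios- replicate 3 the change was -0.0019 (limma adjusted p = 0.991).

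Receptor and adaptor thus changed by unequal amounts. The log2 ratio of Slamf6 to Sh2d1a was 3.13 ± 0.36 in Helios- and 2.34 ± 0.34 in Helios+ libraries (SD, n = 5), a difference of -0.79 ± 0.22 (SE). The exact permutation p was 0.0238 (0.0357 adjusted over the 3 ratios). The ratio was lower in Helios+ cells in 5 of 5 pairs, and the exact sign-flip p was 0.0625, the smallest possible. The ranges overlapped, since Helios- replicate 3 had 2.60 and Helios+ replicates 1 and 2 had 2.69 and 2.65.

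**Figure D3:**
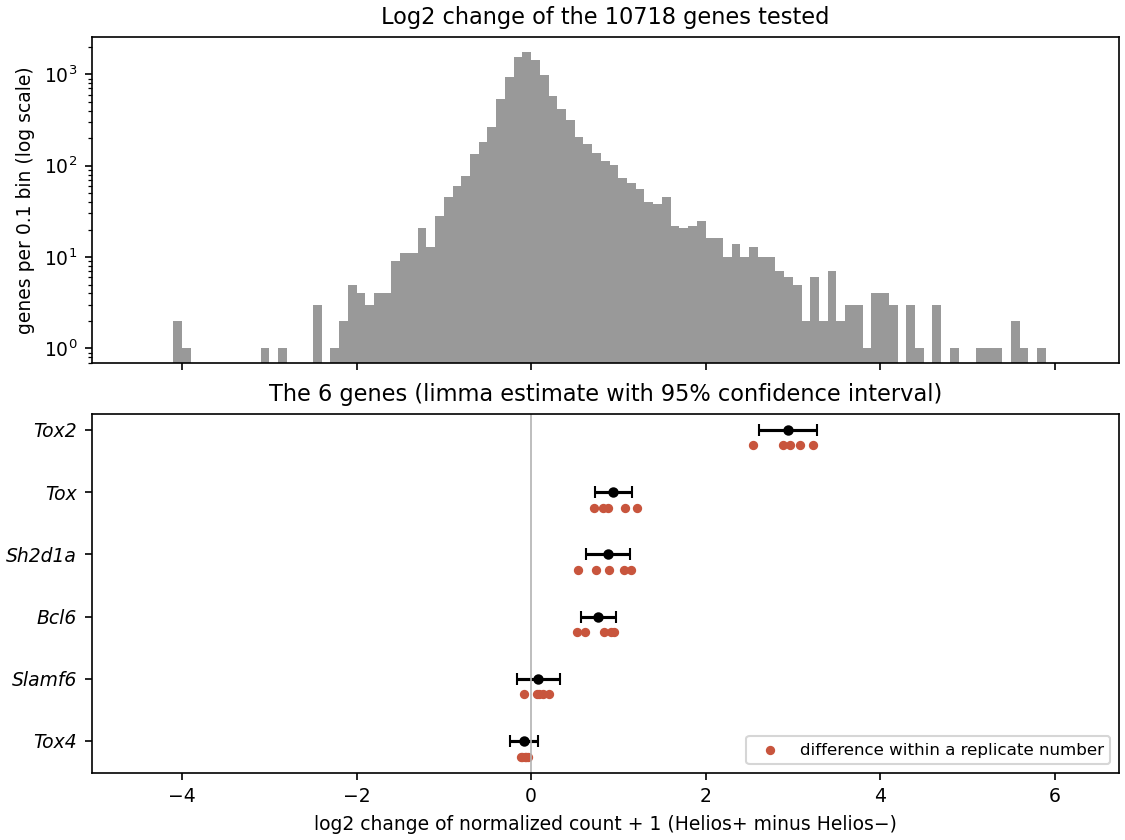
Log2 change between the groups (Helios+ minus Helios−, pseudocount 1). The upper panel is a histogram of the 10718 genes tested with a log count axis, and the lower panel gives the 6 genes with 95% confidence intervals in black and the 5 differences within a replicate number in red. Tox2 stands at 2.94, Tox, Sh2d1a and Bcl6 between 0.77 and 0.94, and the intervals of Slamf6 and Tox4 include 0.

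Per kb of exon, the order of levels changed between the groups. Exon lengths were the merged exons of coding transcripts in the GENCODE M21 basic annotation. In Helios- cells Slamf6 with 142 ± 25.7 and Tox with 141 ± 20.8 normalized counts per kb (SD, n = 5) led and overlapped. Tox4 followed with 93.6 ± 7.68, then Sh2d1a with 73.9 ± 9.93 and Bcl6 with 55.0 ± 6.92, the ranges of these last 2 overlapping. Tox2 was lowest, at 8.89 ± 2.16. In Helios+ cells Tox stood alone at 271 ± 26.5. Slamf6 with 149 ± 16.7 and Sh2d1a with 136 ± 17.2 overlapped, as did Bcl6 with 93.6 ± 5.85 and Tox4 with 88.6 ± 6.84. Tox2 was again lowest at 69.7 ± 9.85, with a range that overlapped that of Tox4. Tox2 was thus the lowest of the 6 in both populations.

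**Figure D4:**
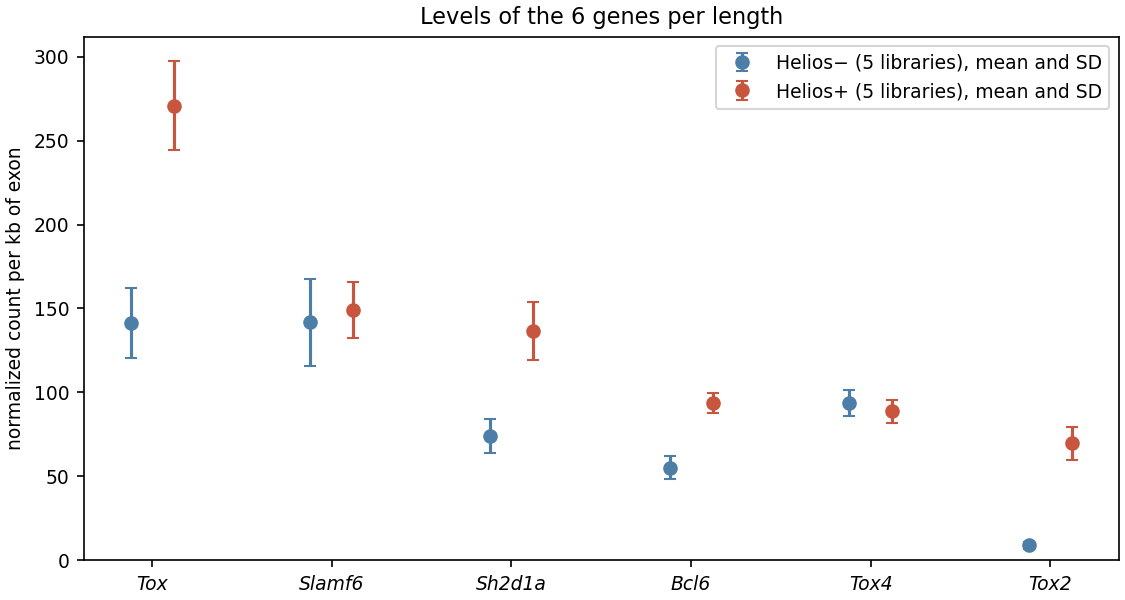
Normalized count per kb of exon of the 6 genes, with the mean and SD of 5 Helios− and 5 Helios+ libraries on an axis from 0. Genes are ordered by their level in Helios+ libraries, from 271 for Tox to 69.7 for Tox2.

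Among genes of the follicular T cell programme outside the 6, more rose than fell, and several of their opponents fell. Of 25 listed genes of the programme, 21 were tested, of which 13 were higher, 4 lower and 4 not called, with a median log2 change of 0.48. With the replicate number as a block, 13 were higher and 6 lower. Over all genes tested, 14.1% were called higher and 10.7% lower, with a median of -0.02, and the counts of the other lists are to be read beside these shares too. Pdcd1 (PD-1), an inhibitory receptor of follicular cells, had 39.5 ± 7.83 and 513 ± 92.0 normalized counts (SD, n = 5), a log2 change of 3.67 ± 0.15 (SE). Irf4, a factor induced by antigen receptor signals, rose by 0.73 ± 0.07. Cxcr5, the chemokine receptor that guides cells into follicles, rose from 332 ± 44.5 to 441 ± 27.8, a log2 change of 0.42 ± 0.09 (limma adjusted p = 0.00263), although its groups overlapped. The 4 lower genes were Cd40lg (CD40 ligand, a help signal to B cells), Il6st (gp130), Tcf7 (TCF1) and Lef1, with log2 changes of -1.13, -0.44, -0.41 and -0.72. Pou2af1, Btla, Il21r and Stat3 were not called. The list thus held members that changed in both directions.

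Of 15 genes that oppose the follicular programme, all tested, 8 were lower and 5 higher, with a median log2 change of -0.31. Foxp1, a factor of T cell quiescence, fell from 4645 ± 75.9 to 3016 ± 125 normalized counts (SD, n = 5). Klf2, S1pr1, Ccr7 and Gpr183, named here after their values were seen, had log2 changes of -0.72, -0.69, -0.72 and -0.71. The 5 higher were Prdm1, Id2, Tbx21 (T-bet), Stat5a and Il2ra (the interleukin-2 receptor alpha chain). Leaving out any single one of Helios- replicate 4 and Helios+ replicates 2, 3, 4 and 5 gave 3. Il2ra changed by 0.25 ± 0.08 on the log2 scale (SE; limma adjusted p = 0.0249), which lost its call in each of these 5 cases.

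SLAM family receptors and their signalling partners changed in part, the partners in both directions. Of 6 tested SLAM family receptors, Slamf1 and Slamf7 were higher by limma and 0 were lower, as by edgeR, DESeq2 and an unadjusted limma p under 0.05. Slamf1 (CD150) had 416 ± 49.6 and 549 ± 42.8 normalized counts (SD, n = 5), with log2 changing by 0.40 ± 0.09 (SE; limma adjusted p = 0.00258). Slamf7 (CRACC) had 96.4 ± 23.4 and 175 ± 39.1, a log2 change of 0.85 ± 0.18. Cd48, Cd84, Ly9 and Cd244 were not called, like Slamf6. Among 7 tested signalling partners, Fyn and the phosphatase gene Ptpn11 (SHP-2) were higher, by 0.23 and 0.32 on the log2 scale. Prkcq (protein kinase C theta) and Vav1 were lower, with log2 changes of -0.52 and -0.19. The lower count was 1 with quantile normalization or cyclic loess, and 1 when Helios- replicate 2 or 5, or Helios+ 3, 4 or 5, was left out. Without both libraries of replicate 4, 1 partner was higher. The median log2 changes of receptors and partners were 0.21 and -0.10.

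Other HMG-box proteins changed in both directions. Of 15 tested, Hmgb2 and Hmgb3 were higher and Tcf7, Lef1 and Pbrm1 lower, with a median log2 change of 0.07. The count of higher genes is near the 14.1% called higher over all genes, beside 10.7% called lower. With the replicate block 5 were lower. Lef1, a partner of Tcf7 in Wnt and T cell programmes, fell from 3345 ± 391 to 2021 ± 135 normalized counts (SD, n = 5). Hmgb3 had 29.2 ± 7.35 and 54.7 ± 7.98. None of the 5 genes of the Tox4 phosphatase complex was called by limma, edgeR or DESeq2, and 1 had a limma p under 0.05 before adjustment. The block called 2 of them lower, Ppp1r10 (PNUTS) and the catalytic subunit gene Ppp1cc, with log2 changes of -0.19 and -0.20. Of 11 tested relatives and corepressors of Bcl6, Zbtb32 and Mta3 were higher and Zbtb7b (ThPOK) was lower. Zbtb32, a BTB-zinc finger repressor, had 8.56 ± 8.04 and 31.3 ± 5.86 normalized counts. The call of Mta3 was lost without both libraries of replicate 2 (limma adjusted p = 0.0564). The lower count in this list was 4 with the block, 3 with DESeq2 and 2 without Helios- replicate 1. It was 0 with quantile normalization, with cyclic loess or without limma's trend and robust options, and 0 when Helios- replicate 4 or 5, or Helios+ 1 or 2, was left out.

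Genes that accompany Tox in chronically stimulated T cells were the list with the highest median. By limma, 12 of 15 were called higher and 0 lower, and edgeR, DESeq2 and an unadjusted limma p under 0.05 also gave 0 lower, with a median log2 change of 1.09. The inhibitory receptor gene Tigit had 37.5 ± 14.6 and 579 ± 30.3 normalized counts (SD, n = 5), with log2 changing by 4.00 ± 0.22 (SE; limma adjusted p = 1.74e-08). The list shares Pdcd1 and Nfatc1 with the follicular programme list, Ctla4 with the Treg markers and Cd244 with the SLAM family receptors. Nfatc2, Havcr2 and Cd244 were not called. Over all 12 lists, without Ikzf2, 38 of 123 distinct tested genes were higher and 18 lower, beside 14.1% and 10.7% of all genes, so the lower count is not far from the background. The block called 33 of them lower, and 1979 of all 10718 genes. The lists were written with earlier results of these libraries known, so these counts are descriptions.

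**Figure D5:**
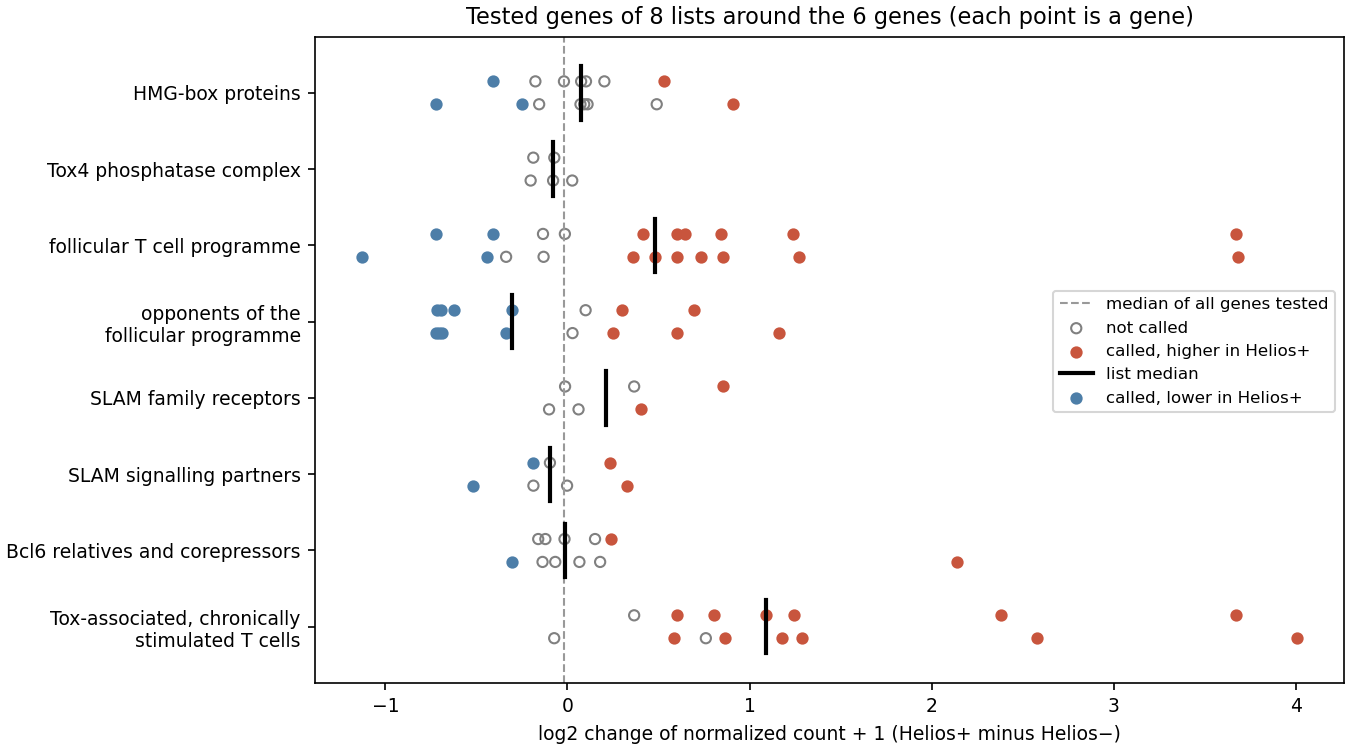
Log2 change (Helios+ minus Helios−, pseudocount 1) for tested members of 8 lists, each point a gene, filled where limma called it (red higher, blue lower) and open where it did not. Black bars are list medians, from -0.31 for the opponents of the follicular programme to 1.09 for the Tox-associated genes, and the dashed line is the median of all genes tested.

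The genes most like each of the 6 were taken from 8030 genes with a mean of at least 50, by Pearson's r of log2 values over the 10 libraries, which here follows the group difference. For Tox these were Mkl2, Socs5 and Syt11 (r = 0.99, 0.99 and 0.98). For Tox2 they were Cul7, Myo1e and Itgb8, for Bcl6 they were Swap70, Larp1b and Marcksl1, and for Sh2d1a they were St8sia4, Ecm1 and Fbxw8, with r between 0.98 and 1.00. Lower values were found for Tox4, with Lman2l, Mrps21 and Arih1 (r = 0.92, 0.91 and 0.91), and for Slamf6, with Fbxl20, Stx4a and Tars2 (r = 0.97, 0.96 and 0.95). None of the top genes was shared between 2 of the 6. With group means removed, which leaves what the libraries share beyond the sort, other genes led, and only Bcl6 kept any, namely Swap70 and Marcksl1. Slamf6 then had the highest values, with Prrc2c, Akap13 and Clk4 (r = 0.99, 0.98 and 0.98). These are the best of 8030 correlations over 10 libraries that share replicate numbers, and are given as descriptions.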

How the data were processed

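RNA of sorted Treg cells was made into libraries with a stranded SMARTer total RNA kit for picogram input, per the labels' protocols. Mouse build mm10, HISAT2 2.0.4, HTSeq and DESeq2 are named in the submitters' processing notes without their roles. For the gene annotation, strand setting and gene filter, the sources used here give nothing. The authors deposited a signal per gene and library, a normalized count. Within a tolerance of 0.001, 100% of the values were whole multiples of the smallest value above 0 of their library, so whole reads were recovered. Recomputed median-of-ratios size factors matched the deposited ones to a relative 3.2e-15. Within groups, the 20 library pairs had a chi-square of 3.53 to 52.3 per degree of freedom, above sampling noise, and none were merged.

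Genes with a mean of at least 10 were tested with limma 3.58.1 (R 4.3.3, trend and robust) on log2(normalized count + 1), and only the group entered the model. This scale understates changes of low genes. The code was also tested on simulated data. The 6 genes and the 3 ratios had exact two-sided permutation tests over the 10 libraries. Only the ratios also had exact sign-flip tests within the 5 pairs. For the 6 genes the exact permutation p-values stand unadjusted. Groups and replicate numbers came from sample titles. Deviations from group means correlated between libraries of equal number (0.15 to 0.48, all 5 over the minimum of 0.1, and highest with the own number for 10 of 10 libraries), so numbers were taken to pair samples. Alternatives were the replicate block, pseudocounts of 0.5 and 5, no filter or a mean of at least 50, TMM, quantile and cyclic loess normalization, limma without trend and robust options, edgeR 4.0.16 and DESeq2 1.42.0 on the recovered reads (edgeR called 1563 genes higher and 1074 lower), and leaving out libraries. The 6 genes, the 12 gene lists and the tests were chosen with earlier results of these data known. Named by rule were the 6 genes, Prdm1, Cxcr5, Pdcd1 and Ikzf2, the 2 genes of smallest p per list, or of highest mean for markers of other cells, the 3 most similar genes per measure, and genes behind counts of 5 or fewer. A gene that this rule took is not reported by name here. Positions are from GENCODE M21, which has the build GRCm38, the same as mm10.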

Additional observations from a re-analysis of the deposited data

Results flagged for a closer look

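In 5 of 68 groups of 5 libraries looked at, 1 library lay far from the other 4, where chance gives about 1 in 20. Tox had 885 normalized counts in Helios+ replicate 1 and 1113 to 1136 in the other Helios+ libraries. Tox4 had 572 in Helios- replicate 3 and 469 to 491 in the others. Bcl6 had 366 in Helios+ replicate 3 and 314 to 326 in the others. Ppp1cc, a gene of the Tox4 phosphatase complex, had 400.3 in Helios+ replicate 4 and 546 to 606 in the others. Lyz2, a macrophage marker, had 322 in Helios+ replicate 1 and 143 to 177 in the others. Whether the low Tox and the high Lyz2 value of Helios+ replicate 1 are related was not tested. Without that library, the log2 change of Tox was 1.01.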

How the results depend on the processing

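Over 26 alternatives each, the calls of Tox (log2 change 0.88 to 1.01), Tox2 (2.78 to 3.07), Bcl6 (0.71 to 0.83) and Sh2d1a (0.80 to 0.96) were kept, with adjusted p of at most 0.001. Tox4 stayed between -0.12 and -0.03 and was not called in any. Slamf6 ranged from -0.0019 (without Helios- replicate 3) to 0.17 and was not called in any. Leaving out libraries gave 1183 to 1632 genes called higher and 747 to 1293 lower, and 12 to 19 distinct list genes lower. With the replicate block, 1979 genes and 33 list genes were lower, and the calls of the 6 genes did not change. In exact tests within the replicate pairs, where no p under 0.0625 is possible, the Tox2 to Tox (2.00) and Slamf6 to Sh2d1a (-0.79) ratio differences no longer passed. Leaving out 1 library gave ratio differences of 1.89 to 2.17 (exact permutation p = 0.0079) and -0.93 to -0.69 (exact p of at most 0.0476), and 0.08 to 0.25 for Bcl6 to Prdm1 (exact p of at least 0.0556). The macrophage marker Itgam, with a log2 change of -0.05 that was not called, ranged from -0.22 to 0.12 when libraries were left out and changed sign without Helios- replicate 4 (0.0041) or 5 (0.12), Helios+ replicate 2 (0.017), or both libraries of replicate 4 (0.0075) or 5 (0.11). The cause was not tested. Depth limits Tox2 in Helios- cells most, at 23 to 34 reads per library.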

Other observations

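Of the follicular programme list, 4 genes fell below the filter on low values and had no test. The follicular cytokine gene Il21 had 0 to 4.69 normalized counts in Helios- and 2.32 to 8.36 in Helios+ libraries. Il4 had 0 to 1.95 and 0.855 to 7.34, and the follicular helper factor gene Ascl2 had 0 to 2.18 and 0 to 2.91. Sostdc1, named here after its values were seen, had 0 to 1.06 in Helios- and 3.42 to 24.3 in Helios+ libraries, so its groups did not overlap.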
